A study of Mus musculus with 18 samples.

Results

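Gfap and 9 further astrocyte markers were followed in whole brain across wild type mice and 2 estrogen receptor knockout lines. The genes were Gfap, Aqp4, Slc1a2, Slc1a3, Aldh1l1, Aldoc, Glul, S100b, Slc7a10 and Fgfr3, 10 of the 18193 genes named on the array. Every probe set whose annotated symbol was one of these was taken, which gave 28 of 45037 non-control probe sets, and the probe set with the highest mean over all 18 arrays led for each gene. Lead probe sets were thus chosen by their mean signal over all arrays, and no difference between genotypes entered that choice. 1 further probe set, annotated to Slc1a2 together with another gene, was left out. The lead probe sets of all 10 genes passed the filter on low signal.

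Astrocytes are the glial cells that clear transmitter from synapses, buffer potassium and water and supply neurons with metabolites. GFAP is the intermediate filament protein of astrocytes, most abundant in fibrous white matter astrocytes and in astrocytes that react to injury, and its transcription is switched on during astrocyte differentiation by STAT3 signalling downstream of the LIF receptor family. The other markers are carried by grey matter astrocytes to a greater extent than Gfap is, among them the glutamate transporters Slc1a2 and Slc1a3 and the enzyme Glul, which converts the glutamate taken up to glutamine.

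The arrays came from 3 genotypes, each with 3 female and 3 male brains: mice labelled ERbetaKO, mice labelled ERalphaKO, and wild type mice. All were C57BL/6 and 8 weeks old, and whole brains were frozen before RNA was extracted. The sources used here give neither the alleles behind the knockout labels nor whether the 3 samples of a group came from separate animals, so the p-values reflect only how far these samples spread, which may be technical. Values are MAS5 signals on a linear scale, differences are on the scale log2(signal + 63.6), and adjusted p-values are limma's with Benjamini-Hochberg adjustment over the 13070 genes tested, at a threshold of 0.05.

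The receptor transcripts went against the labels or did not separate them. The Esr2 probe set averaged 271 ± 98.0 in the ERbetaKO-labelled arrays, 33.2 ± 22.6 in the ERalphaKO-labelled arrays and 28.7 ± 11.4 in wild type (SD, n = 6 each). Esr1 averaged 197 ± 24.6, 129 ± 21.6 and 143 ± 35.9 in the same order. Where the probes lie relative to the disrupted part of each gene is not given in the sources used here, so the directions below rest on the labels alone. Xist, expressed from the inactive X chromosome, matched the labelled sex on all 18 arrays, at 3916 or more in females and 449 or less in males. The 2% trimmed mean was 500 on every array. The ratio of 3′ to 5′ signal of the Actb control probe sets, a measure of RNA integrity and labelling, was 1.48 ± 0.182 in ERbetaKO-labelled arrays (1.34 to 1.84), 1.28 ± 0.0786 in ERalphaKO-labelled arrays and 1.20 ± 0.0209 in wild type (1.17 to 1.23), with no overlap between the first and the last. The 12 neuron genes listed as a check of the tissue had a mean log2 level of 12.2 to 12.8 on every array. The Gapdh ratio averaged 0.756, 0.758 and 0.769. Cerebellar and pituitary transcripts also varied between arrays. Pcp2, a Purkinje cell transcript, ranged between 117 and 10790 and the pituitary transcript Gh between 67.0 and 19903, with both ends of each range found among the wild type arrays. A Pcp2 signal of 500 or more was found on 3 of 6 ERbetaKO-labelled, 4 of 6 ERalphaKO-labelled and 4 of 6 wild type arrays.

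The promoter of Gfap is shown because Gfap had the largest difference of the 10 genes between ERbetaKO-labelled and wild type brains, and that of Slc7a10 because it was the other gene to pass the test in ERbetaKO-labelled brains. Each window holds 250 bases before and 50 after the annotated start, from RefSeq on GRCm38.p6, with motif matches in capitals: the Gfap window is chr11:102897151-102897450 on the minus strand and the Slc7a10 window chr7:35186135-35186434 on the plus strand.
Gfap: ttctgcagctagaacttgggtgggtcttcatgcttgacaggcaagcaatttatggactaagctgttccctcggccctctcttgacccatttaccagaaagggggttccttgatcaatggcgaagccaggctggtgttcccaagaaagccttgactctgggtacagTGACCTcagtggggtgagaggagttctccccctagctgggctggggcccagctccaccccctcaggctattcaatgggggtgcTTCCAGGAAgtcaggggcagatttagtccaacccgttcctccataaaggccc
Slc7a10: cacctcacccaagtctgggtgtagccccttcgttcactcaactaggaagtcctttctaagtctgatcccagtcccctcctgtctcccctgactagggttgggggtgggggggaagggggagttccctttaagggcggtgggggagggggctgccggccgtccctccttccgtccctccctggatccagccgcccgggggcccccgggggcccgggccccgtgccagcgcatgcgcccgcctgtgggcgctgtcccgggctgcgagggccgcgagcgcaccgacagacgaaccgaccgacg

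4 motifs were searched on both strands in 11 windows of 9 of the genes. In the Gfap window the capitals mark 1 match to AGGTCA, read on the opposite strand as TGACCT, the hexamer of which an estrogen response element holds a pair, and 1 match to the STAT motif TTCNNNGAA. The Slc7a10 window held no match. AGGTCA was found in 4 of the 11 windows, those of Gfap, Slc1a2, Aldh1l1 and Glul, and in 16.3% of all 32851 RefSeq windows. The STAT motif was found in 3 of the 11, for Gfap, Slc1a3 and Aldoc, and in 8.30% of all windows. The paired element GGTCANNNTGACC was in 0 of the 11 windows and 0.0700% of all, and the NFI motif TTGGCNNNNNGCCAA in 0 of the 11 and 0.0365% of all. A match is a string of letters in this window and shows no binding.

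Gfap was lower in ERbetaKO-labelled brains than in either other genotype. The lead probe set 1426508_at read 1129, 1068 and 1066 in ERbetaKO-labelled females and 962, 1609 and 1327 in ERbetaKO-labelled males. It read 2546, 2052 and 3018 in ERalphaKO-labelled females and 2922, 2807 and 1754 in ERalphaKO-labelled males, and in wild type 2652, 2923 and 3018 in females and 3470, 2472 and 2680 in males. All 6 ERbetaKO-labelled arrays lay below all 12 others, while the ERalphaKO-labelled and wild type ranges overlapped.

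The means were 1193 ± 237 in ERbetaKO-labelled, 2517 ± 510 in ERalphaKO-labelled and 2869 ± 354 in wild type brains (SD, n = 6 each). The ERbetaKO mean was 58.4% below wild type, a log2 difference of -1.23 ± 0.14 (SE; 95% interval -1.53 to -0.94; limma adjusted p = 0.000188). Against ERalphaKO the difference was -1.03 ± 0.14 (adjusted p = 0.000929). ERalphaKO against wild type gave -0.20 ± 0.14, with an interval of -0.50 to 0.09 and an adjusted p of 0.408. Gfap was one of the genes already known to be lower here when the list was drawn up, so its test is no independent evidence. In whole tissue, fewer cells of a type and less RNA per cell cannot be told apart.

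Both sexes showed the difference. Within the fit of all arrays, the log2 difference of ERbetaKO from wild type was -1.35 in females (adjusted p = 0.00979) and -1.12 in males (adjusted p = 0.0159). The female minus male difference of these effects was -0.22 ± 0.28 (adjusted p = 1.00). When males were fitted alone, the adjusted p was 0.0571. The ERbetaKO-labelled brains averaged 1088 ± 35.6 in females and 1299 ± 324 in males (SD, n = 3 each), and ERbetaKO-labelled male replicate 2 was the highest of the 6. Ordered by mean, the 6 groups ran wild type male, wild type female, ERalphaKO female, ERalphaKO male, ERbetaKO male and ERbetaKO female, and only the step between ERalphaKO male and ERbetaKO male separated neighbours whose arrays did not overlap.

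The other 2 Gfap probe sets gave different sizes. Probe set 1426509_s_at averaged 597 ± 105 in ERbetaKO-labelled, 1315 ± 417 in ERalphaKO-labelled and 1633 ± 331 in wild type brains. Its difference was -1.35 ± 0.17 against wild type (limma adjusted p = 0.000590) and -1.03 ± 0.17 against ERalphaKO (adjusted p = 0.00336), in a fit of all 45037 probe sets with no filter. Probe set 1440142_s_at averaged 290 ± 86.4, 500 ± 174 and 439 ± 88.3 in the same order, and its difference from wild type, -0.53 ± 0.21, did not pass (adjusted p = 0.170), nor did that from ERalphaKO (-0.65, adjusted p = 0.0597). The deposited table does not say which transcripts each probe set reads.

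**Figure D1:**
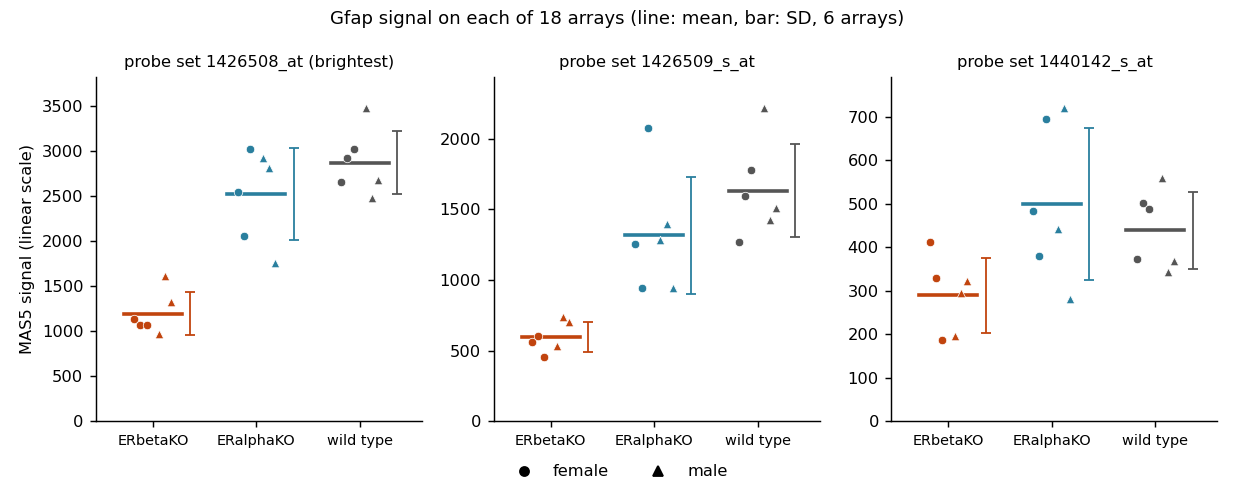
MAS5 signal (linear scale, vertical axis) of the 3 Gfap probe sets on each of 18 arrays, by genotype; circles are females, triangles males, lines the mean and bars the SD of 6 arrays. On the lead probe set the ERbetaKO-labelled arrays sit between 962 and 1609, below all others; on 1440142_s_at the genotypes overlap.

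Of the 10 lead probe sets, 2 fell and 0 rose in ERbetaKO-labelled brains against wild type, Gfap and Slc7a10, where 7.51% of all genes tested passed and 4.61% were called lower. The arrays of both genes lay wholly below wild type, as 2.44% of all genes did. 9 of the 10 differences were negative, with a median of -0.35, beside a median of 0.01 and 48.9% negative over all genes tested. In ERalphaKO-labelled brains 1 of 10 fell and 0 rose, Aldoc, where 6.71% of all genes passed and 3.63% were called lower. The ERalphaKO-labelled arrays of Aldoc and Glul lay wholly below wild type, as those of 2.62% of all genes did, and Glul did not pass. 7 of those 10 differences were negative, with a median of -0.20, against -0.03 and 56.1% over all genes. ERbetaKO against ERalphaKO gave 1 call, Gfap, where 15.4% of all genes passed, 6.31% were called lower and 2.28% lay wholly below, and a median of -0.09 beside 0.02. Both comparisons with wild type share the same 6 wild type arrays. The 18 probe sets of these genes that did not lead had a median of -0.12 for ERbetaKO against wild type, with 12 negative. Their median was -0.00165 for ERalphaKO against wild type, with 9 negative. For ERbetaKO against ERalphaKO it was -0.18, with 12 negative. With a median scaling of the arrays, which moved the median of all genes to -0.12 for ERbetaKO against wild type, 7 of the 10 genes passed. The count was 6 with array weights and 4 with the cerebellar level as a covariate. It was 1 with the Actb ratio added to the fit or in females alone, and 0 in males alone. Leaving out 1 array also moved it, and it was 5 without ERbetaKO-labelled female replicate 1 and 4 without ERbetaKO-labelled male replicate 3.

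**Figure D2:**
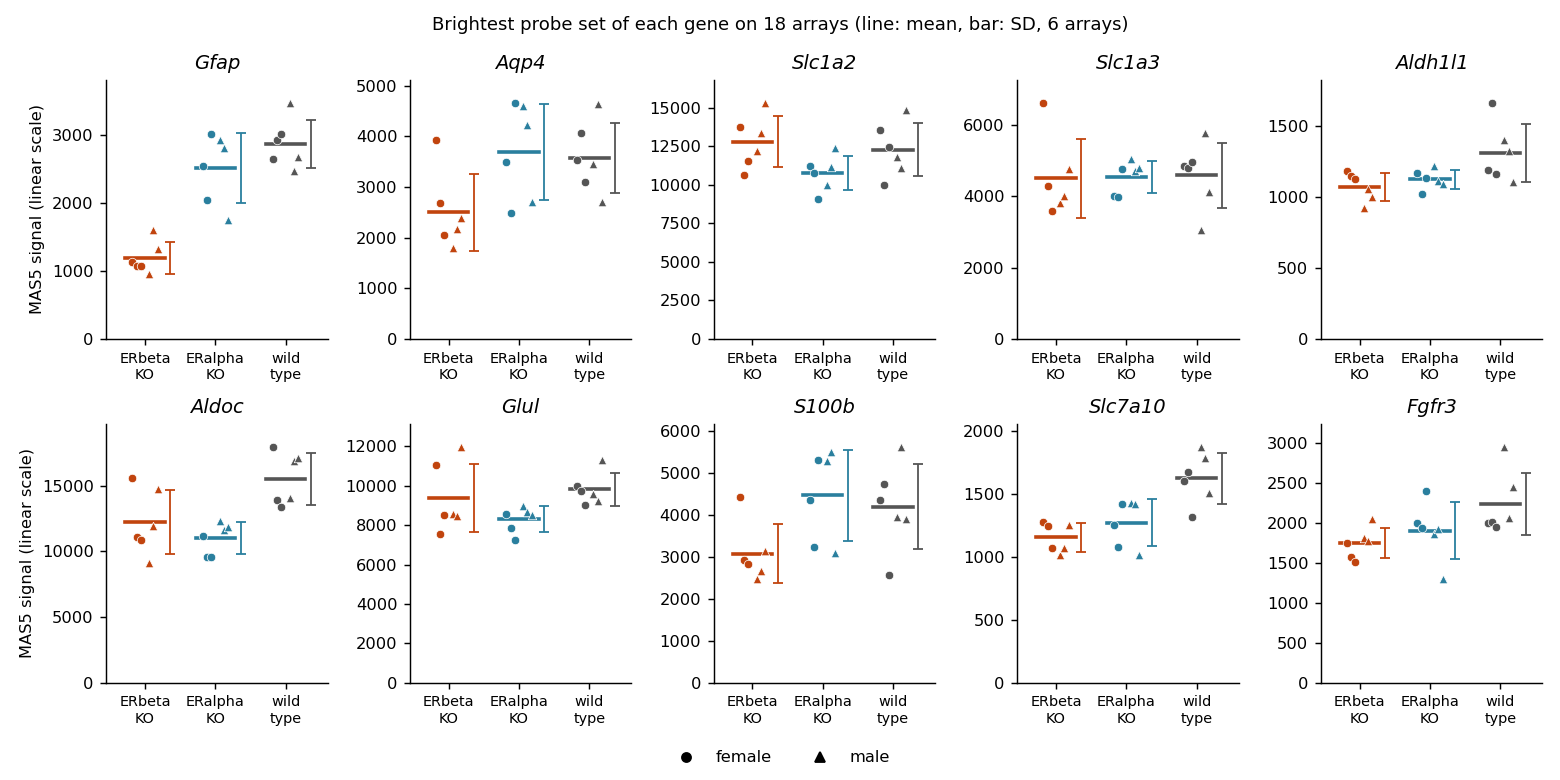
MAS5 signal (linear scale, vertical axis, 1 panel per gene) of each gene's lead probe set on 18 arrays by genotype; circles are females, triangles males, lines the mean and bars the SD of 6 arrays. ERbetaKO-labelled and wild type arrays do not overlap for Gfap and Slc7a10, and ERalphaKO-labelled and wild type arrays do not overlap for Aldoc and Glul.

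Slc7a10, the exchanger Asc-1 that carries small neutral amino acids such as D-serine and glycine, is read by a single probe set. It read 1281, 1243 and 1071 in ERbetaKO-labelled females and 1014, 1072 and 1251 in ERbetaKO-labelled males. In ERalphaKO-labelled brains it read 1256, 1080 and 1425 in females and 1428, 1424 and 1018 in males, and in wild type 1601, 1676 and 1314 in females and 1873, 1788 and 1505 in males. The highest ERbetaKO-labelled array lay just below the lowest wild type array, and the ERalphaKO-labelled arrays overlapped both other genotypes.

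Slc7a10 averaged 1155 ± 115 in ERbetaKO-labelled, 1272 ± 186 in ERalphaKO-labelled and 1626 ± 201 in wild type brains (SD, n = 6 each). The log2 difference of ERbetaKO from wild type was -0.47 ± 0.10 (limma adjusted p = 0.0128), and that of ERalphaKO from wild type -0.34 ± 0.10 (adjusted p = 0.0521). The knockouts differed from each other by -0.13 ± 0.10 (interval -0.34 to 0.09, adjusted p = 0.413), so a call for one and not for the other does not show that they differ. With the Actb ratio added to the fit, the difference from wild type was -0.55 with an adjusted p of 0.118. In the fit of all arrays the difference of ERbetaKO from wild type was -0.33 in females (adjusted p = 0.397) and -0.60 in males (adjusted p = 0.0436), and fits of females or males alone gave adjusted p-values of 0.471 and 0.0838.

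Aldoc encodes aldolase C, the brain form of the glycolytic enzyme, found in astrocytes and also in bands of Purkinje cells. Its lead probe set read 15537, 11069 and 10849 in ERbetaKO-labelled females and 9143, 11953 and 14771 in ERbetaKO-labelled males. It read 11169, 9560 and 9553 in ERalphaKO-labelled females and 12265, 11649 and 11863 in ERalphaKO-labelled males, against 17922, 13867 and 13352 in wild type females and 14040, 16870 and 17079 in wild type males. All ERalphaKO-labelled arrays lay below all wild type arrays, and the ERbetaKO-labelled arrays spread across both.

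Aldoc averaged 12220 ± 2460 in ERbetaKO-labelled, 11010 ± 1180 in ERalphaKO-labelled and 15522 ± 1982 in wild type brains (SD, n = 6 each). The ERalphaKO difference from wild type was -0.49 ± 0.12 (limma adjusted p = 0.0250) and the ERbetaKO difference -0.36 ± 0.12 (adjusted p = 0.0772). ERbetaKO and ERalphaKO differed by 0.13 ± 0.12 (adjusted p = 0.467). The ERalphaKO call was lost under 11 of 36 alternatives. Quantile normalization gave -0.15 with an adjusted p of 0.144. Leaving out wild type female replicate 1 gave an adjusted p of 0.0620, wild type male replicate 3 gave 0.0576, ERalphaKO-labelled female replicate 2 gave 0.0569, ERalphaKO-labelled female replicate 3 gave 0.0555 and ERalphaKO-labelled male replicate 2 gave 0.0584. A second probe set, 1424714_at, gave -0.22 for ERalphaKO against wild type (adjusted p = 0.149).

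Among the genes of transmitter uptake, none of the lead probe sets passed a genotype test. Slc1a2, the main glutamate transporter GLT-1, averaged 12816 ± 1674 in ERbetaKO-labelled, 10770 ± 1127 in ERalphaKO-labelled and 12303 ± 1734 in wild type brains, with differences from wild type of 0.06 (adjusted p = 0.756) and -0.19 (adjusted p = 0.298). Slc1a3, the transporter GLAST, which is also strong in Bergmann glia of the cerebellum, averaged 4516 ± 1108, 4556 ± 452 and 4596 ± 915, and its differences from wild type were -0.03 and 0.01. The sign for either transporter turned under some settings. Glul, the glutamine synthetase that works downstream of both, averaged 9363 ± 1728, 8307 ± 649 and 9811 ± 821 on its lead probe set, with differences of -0.08 (adjusted p = 0.652) and -0.24 (adjusted p = 0.167). Its ERalphaKO-labelled arrays, at 7231 to 8997, lay just below its wild type arrays, at 9004 to 11321, and the ERbetaKO-labelled arrays overlapped both.

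A second Glul probe set did pass. Probe set 1426235_a_at averaged 1984 ± 233 in ERbetaKO-labelled, 2633 ± 266 in ERalphaKO-labelled and 2577 ± 223 in wild type brains. It was lower in ERbetaKO-labelled brains by -0.37 ± 0.09 against wild type (limma adjusted p = 0.0304) and by -0.40 ± 0.09 against ERalphaKO (adjusted p = 0.0135), so the 2 Glul probe sets disagree. Of the 18 probe sets that did not lead, 2 fell and 0 rose against wild type in ERbetaKO-labelled brains, this one and 1426509_s_at of Gfap, where 3.59% of all probe sets passed and 1.68% were called lower. In ERalphaKO-labelled brains 1 of the 18 fell, Fgfr3 probe set 1425796_a_at, where 4.72% of all probe sets passed and 1.62% were called lower. Slc1a3 probe set 1452031_at, at 3049 ± 540, 3509 ± 527 and 4258 ± 799 in the same order of genotypes, gave -0.47 ± 0.13 for ERbetaKO against wild type, with an adjusted p of 0.0563.

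Aqp4 is the water channel of astrocyte endfeet, and S100b a calcium-binding protein of astrocytes that oligodendrocytes also carry. Their lead probe sets had lower means in ERbetaKO-labelled than in wild type brains, with a wide spread within groups and no call. Aqp4 ranged between 1797 and 3930 (median 2283) in ERbetaKO-labelled, 2487 and 4652 (median 3859) in ERalphaKO-labelled and 2698 and 4647 (median 3490) in wild type brains. Its ERbetaKO difference was -0.53 ± 0.19 against wild type (adjusted p = 0.0894) and -0.55 ± 0.19 against ERalphaKO (adjusted p = 0.0537). Against wild type, Aqp4 probe set 1425382_a_at gave -0.73 ± 0.27 (limma adjusted p = 0.146) and 1447745_at gave 0.05 ± 0.26 (adjusted p = 0.942). The lower level was thus not seen on every Aqp4 probe set. S100b averaged 3072 ± 701 in ERbetaKO-labelled, 4461 ± 1081 in ERalphaKO-labelled and 4186 ± 1012 in wild type brains, and its differences were -0.43 (adjusted p = 0.161) and -0.52 (adjusted p = 0.0664). For both genes ERbetaKO-labelled female replicate 1 was the highest of its genotype, at 3930 for Aqp4 and 4424 for S100b, and that array had the highest Pcp2 signal of its genotype, 9849. Without it, the Aqp4 difference from wild type was -0.65 (adjusted p = 0.0403). Of the 18 fits that left out 1 array, only this 1 passed for Aqp4. Over the 18, the difference ran between -0.65 and -0.42 and the limma adjusted p between 0.0403 and 0.189.

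Fgfr3, a fibroblast growth factor receptor of astrocytes and their precursors, averaged 1748 ± 190 in ERbetaKO-labelled, 1905 ± 354 in ERalphaKO-labelled and 2239 ± 393 in wild type brains. Its ERbetaKO difference from wild type was -0.34 ± 0.10 with an adjusted p of 0.0516, and its ERalphaKO difference -0.23 (adjusted p = 0.174). On 1425796_a_at the order of the knockouts turned, with 598 ± 65.7, 474 ± 71.9 and 659 ± 81.7, and the ERalphaKO difference was -0.43 ± 0.10 (limma adjusted p = 0.0247). Aldh1l1, the folate enzyme much used as a pan-astrocyte marker, averaged 1073 ± 99.1, 1126 ± 67.6 and 1309 ± 204, with differences from wild type of -0.27 (adjusted p = 0.0666) and -0.20 (adjusted p = 0.174). Its probe set 1424401_at, with a mean of 116 over all arrays, gave 0.30 ± 0.24 for ERbetaKO against wild type (limma adjusted p = 0.510).

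**Figure D3:**
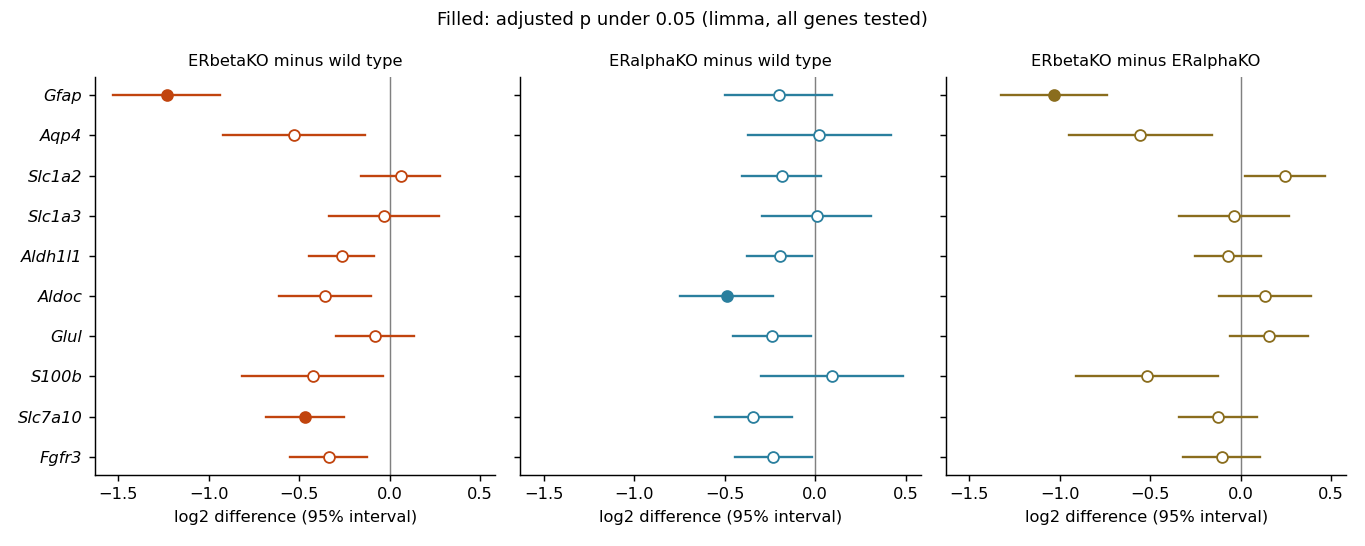
Log2 difference with its 95% interval (horizontal axis) for each gene's lead probe set in 3 genotype comparisons; filled points passed at an adjusted p under 0.05. Gfap lies at -1.23 and -1.03 in the comparisons that hold ERbetaKO, and at -0.20 for ERalphaKO against wild type.

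Gfap moved further than the other markers within the same arrays. The log2 level of Gfap minus the mean log2 level of the other 9 genes was -1.57 ± 0.28 in ERbetaKO-labelled (-1.94 to -1.07), -0.63 ± 0.19 in ERalphaKO-labelled (-0.97 to -0.42) and -0.60 ± 0.24 in wild type brains (-0.94 to -0.31), so the ERbetaKO-labelled arrays lay below all others on this measure too. The mean of the other 9 was 11.8 in ERbetaKO-labelled, 11.9 in ERalphaKO-labelled and 12.1 in wild type brains. No p is given for these sums, since the genes were chosen with earlier results known.

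Sex made no difference that passed. For female minus male, limma called 0 of 10 genes, against 4 of all genes tested (0.0306%). At an unadjusted p under 0.05 there were 0 of the 10 and 603 of all genes, and the 10 differences ran between -0.12 and 0.09. For both interactions of genotype with sex, 0 of 10 genes and 0 of 13070 genes (0%) were called, with 444 genes at an unadjusted p under 0.05 for ERbetaKO and 675 for ERalphaKO. The smallest unadjusted p among the 10 was that of Fgfr3 for ERalphaKO (0.00707, adjusted p = 0.852), whose difference from wild type was 0.08 in females and -0.54 in males.

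Markers of other cell types differed between the same arrays. The 10 cerebellar neuron genes on the array had a median difference of -0.87 between ERbetaKO-labelled and wild type brains, with 10 of 10 negative. By limma 0 of the 10 passed and 0 had an unadjusted p under 0.05. Their mean log2 level ranged between 8.53 and 12.3 in ERbetaKO-labelled, 8.51 and 11.9 in ERalphaKO-labelled and 8.35 and 12.5 in wild type brains. The summed signal of these genes ranged between 7043 and 64458 in ERbetaKO-labelled, 6481 and 47061 in ERalphaKO-labelled and 7063 and 72479 in wild type brains. The 13 oligodendrocyte genes had a median difference of -0.28, with 12 of 13 negative. Of the 13, 1 fell, Myrf (-0.75, limma adjusted p = 0.0457), the transcription factor of myelination, where 7.51% of all genes passed and 4.61% were called lower. The summed signal of the 13 genes ranged between 34942 and 55849 in ERbetaKO-labelled, 36935 and 52406 in ERalphaKO-labelled and 41210 and 58204 in wild type brains.

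The 9 oligodendrocyte precursor genes had a median difference of -0.24 between ERbetaKO-labelled and wild type brains, with 5 of 9 negative. The 9 differences ran between -0.69 and 0.32. Over all genes tested, 7.51% passed and 4.61% were called lower. Of the 9, 3 fell and 0 rose. They were Sox10, a transcription factor of the oligodendrocyte lineage (1145 ± 160 in ERbetaKO-labelled and 1723 ± 310 in wild type brains; -0.56, limma adjusted p = 0.0083), the channel subunit Cacng4 (-0.69, adjusted p = 0.0186) and Lhfpl3 (-0.46, adjusted p = 0.035). The arrays of Sox10 and Cacng4 lay wholly below wild type, as those of 2.44% of all genes did. The summed signal of the 9 genes ranged between 7601 and 10556 in ERbetaKO-labelled, 9945 and 11901 in ERalphaKO-labelled and 10045 and 12770 in wild type brains. All 5 genes listed for Bergmann glia, the radial astrocytes of the cerebellum, were negative with a median of -0.44. Of the 5, 1 fell, the phosphatase Ptprz1 (-0.30, adjusted p = 0.0477), where 4.61% of all genes were called lower. The summed signal of the 5 genes ranged between 6047 and 11871, 8851 and 11882, and 8948 and 14718 in the same order of genotypes.

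Of 11 endothelial genes, 2 fell in ERbetaKO-labelled brains, the tight junction gene Cldn5 (-0.39, limma adjusted p = 0.00579) and Itm2a (-0.26, adjusted p = 0.0397), with a median of -0.05 and summed signals between 9345 and 10130, 9214 and 10877, and 9808 and 11561. Of 13 microglia genes 1 fell, the fractalkine receptor Cx3cr1 (-0.52, adjusted p = 0.0274), with a median of -0.04. Beside these endothelial and microglia calls, 7.51% of all genes tested passed for ERbetaKO against wild type and 4.61% were called lower. Of the 12 neuron, 6 choroid plexus and ependymal, and 5 pituitary genes, limma called 0, and 1, 1 and 0 of them had an unadjusted p under 0.05. In ERalphaKO-labelled brains Cldn5 (-0.40) and Itm2a (-0.27) fell and Vwf rose (0.41) among the endothelial genes, the microglia genes C1qa (-0.53) and Ctss (-0.33) and the neuron gene Syn1 (-0.41) fell, and limma called 0 of the oligodendrocyte, precursor, Bergmann glia and cerebellar genes, of which 1, 2, 0 and 0 had an unadjusted p under 0.05. For ERalphaKO against wild type, 6.71% of all genes tested passed and 3.63% were called lower. The median difference there was -0.28 for the 12 neuron genes, with 10 negative, and -0.20 for the 13 microglia genes, with 12 negative. By limma, 7 and 5 of them had an unadjusted p under 0.05. Medians were -0.15 for endothelial, 0.02 for oligodendrocyte, -0.01 for precursor and 0.01 for Bergmann glia genes. They were 0.11 for cerebellar, 0.02 for choroid plexus and ependymal, and -0.48 for pituitary genes, beside -0.03 for all genes. The part of the precursor, Bergmann glia, endothelial, microglia and neuron markers in the astrocyte differences was not tested.

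After the group means were removed, the Pearson correlation of Gfap over the 18 arrays was 0.79 with the oligodendrocyte genes and 0.44 with the cerebellar genes, and that of Aqp4 with the cerebellar genes was 0.91. Gfap stood at 0.60 with the choroid plexus and ependymal genes, 0.55 with the endothelial and 0.31 with the Bergmann glia genes. It stood at 0.24 with the pituitary, 0.16 with the precursor, -0.19 with the microglia and -0.41 with the neuron genes. The levels of these last lists were not used as covariates. These arrays share their scaling, and the correlations are descriptions. With the oligodendrocyte level as a covariate, the Gfap difference of ERbetaKO from wild type was -1.01 (adjusted p = 0.000154). With the cerebellar level as a covariate it was -1.18 (adjusted p = 6.7e-05), over the arrays with a Pcp2 signal of 500 or more -1.11 (adjusted p = 0.00455), and with the Actb ratio added to the fit -1.37 (adjusted p = 0.00937). The Slc7a10 difference was -0.29 with the oligodendrocyte level (adjusted p = 0.0276) and -0.40 with the cerebellar level (adjusted p = 0.0027). Gfap correlated with the Actb ratio at -0.66 over the 18 arrays, and at 0.20 after the group means were removed. The Actb ratio did not overlap between ERbetaKO-labelled and wild type arrays, so a fit that holds both cannot separate them. The part of these tissue measures in the differences of Gfap, Slc7a10 or the other genes was not tested.

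**Figure D4:**
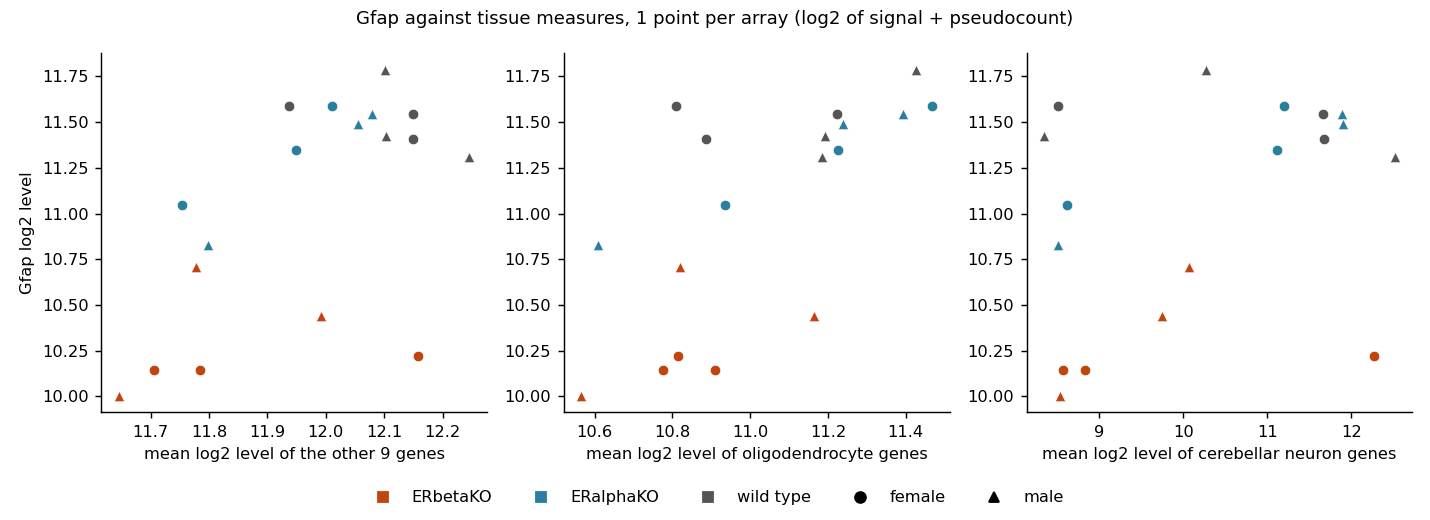
Log2 level of Gfap (vertical axis) against the mean log2 level of the other 9 genes, of the oligodendrocyte genes and of the cerebellar neuron genes (horizontal axes), 1 point per array coloured by genotype, circles for females and triangles for males. The 6 ERbetaKO-labelled arrays lie below the other 12 in Gfap at every value these 3 measures took in them.

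The 10 genes did not move as one over the 18 arrays. Over their 45 pairs, the median Pearson correlation was 0.34, between -0.47 and 0.91. Aqp4 and S100b were the closest pair at 0.91, and Aldoc and Glul stood at 0.80. Gfap correlated with Slc7a10 at 0.70, Aqp4 at 0.68 and Fgfr3 at 0.64, and with Slc1a2 at -0.32. Of the 13060 other genes tested that are not in the list, the 5 most like Gfap were Mboat2 (0.92), Nckipsd (0.91), Tmem18 (0.91), Podxl2 (0.90) and Foxo4 (0.90). Set among those 13060 genes, the nearest of the list, Slc7a10, ranked 291. They were chosen by their likeness to Gfap over these same arrays, which fixed their direction between genotypes, so their levels are a description. Tmem18 averaged 204 in ERbetaKO-labelled, 892 in ERalphaKO-labelled and 898 in wild type brains, and Mboat2, an acyltransferase of phospholipids, averaged 766, 1381 and 1487 in the same order. With the group means removed, the 5 nearest were others, Gm33738 (0.88), Tmem189 (0.87), Sypl (0.86), Pcdh9 (0.86) and Lrch1 (0.86), and Fgfr3 ranked 55 at 0.75.

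A longer list of 34 astrocyte genes outside the 10 had 32 on the array, all of them tested. Fabp7 among them is also listed for Bergmann glia. In ERbetaKO-labelled brains 6 fell and 0 rose against wild type, where 7.51% of all genes passed and 4.61% were called lower. Of the 32 differences 27 were negative and the median was -0.27, beside 0.01 for all genes. Slc6a11, the GABA transporter GAT-3 of astrocytes, had the largest difference of the 6 (871 ± 225 in ERbetaKO-labelled and 2064 ± 843 in wild type brains; -1.12, adjusted p = 0.00577). Ttyh1, a membrane protein of astrocytes, averaged 2043 ± 150 and 2913 ± 149 in the same order (-0.50, adjusted p = 0.000717). Slc25a18, a mitochondrial glutamate carrier, averaged 1033 ± 125 and 1556 ± 139 (-0.57, adjusted p = 0.00361). The others were the sodium pump subunit Atp1b2 (-0.53), the secreted protease Htra1 (-0.26) and the receptor Gpr37l1 (-0.47). The calls of Gpr37l1, Htra1 and Atp1b2 were lost under 25, 14 and 10 of 36 alternatives. The count of 6 was 2 with the Actb ratio added to the fit or over the arrays with strong Pcp2, 0 in females or males alone, 15 with array weights and 17 with median scaling. It was 12 without ERbetaKO-labelled male replicate 3. It was 3 without wild type female replicate 1, wild type male replicate 2, ERbetaKO-labelled female replicate 2, ERbetaKO-labelled female replicate 3 or ERbetaKO-labelled male replicate 1, each left out alone.

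In ERalphaKO-labelled brains 4 of the 32 fell and 0 rose: Htra1 (-0.30), Sparcl1, a secreted matricellular protein (-0.52), Slc25a18 (-0.40) and Atp1b2 (-0.47), where 6.71% of all genes passed and 3.63% were called lower, with a median of -0.15 beside -0.03 for all genes. The Atp1b2 call was lost under 27 of 36 alternatives, 15 of which left out 1 array. The count was 0 over the arrays with strong Pcp2 and in either sex alone. Without ERalphaKO-labelled male replicate 2 the count was 1, and it was 2 without wild type female replicate 3, wild type male replicate 1 or ERalphaKO-labelled female replicate 2. Between the knockouts, ERbetaKO-labelled brains had lower Ttyh1 (-0.50, adjusted p = 0.000907), Slc6a11 (-1.08, adjusted p = 0.00517), the fatty acid binding protein Fabp7 (-0.83) and the adhesion protein Hepacam (-0.23), and higher Bcan, the matrix proteoglycan brevican (0.34), where 15.4% of all genes passed. The Hepacam call was lost under 19 of 36 alternatives, 9 of which left out 1 array.

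Of 29 genes induced in reactive astrocytes, 27 were on the array and 17 passed the filter on low signal. In ERbetaKO-labelled against wild type brains 1 fell, Cp, the copper-carrying ferroxidase ceruloplasmin (299 ± 42.5 in ERbetaKO-labelled and 540 ± 142 in wild type brains; -0.72, limma adjusted p = 0.0106), and the median of the 17 was -0.08. That is 1 of 17, where 7.51% of all genes passed and 4.61% were called lower. In ERalphaKO-labelled brains 0 of the 17 passed by limma and 1 had an unadjusted p under 0.05, with a median of -0.07, where 6.71% of all genes passed. Between the knockouts, ERbetaKO-labelled brains had lower Vim, the filament protein that assembles with GFAP (-0.76, adjusted p = 0.0206), Amigo2 (-0.63) and Cp (-0.54), and higher Synm (0.36), S1pr3 (0.31) and Cd14 (0.53), where 15.4% of all genes passed. The Cd14 call was lost under 25 of 35 alternatives, 14 of which left out 1 array.

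A list of 13 genes for intermediate filaments, outside the 10, shared Vim, Nes and Synm with the reactive astrocyte list. Among these 13, the neuronal filament gene Ina fell in ERbetaKO-labelled brains against wild type (-0.38, limma adjusted p = 0.00307), and 12 did not pass, where 4.61% of all genes were called lower. In ERalphaKO-labelled brains 3 fell: Ina (-0.25), the neurofilament gene Nefl (-0.31) and the muscle filament gene Des (-0.68), where 3.63% were called lower. Between the knockouts, ERbetaKO-labelled brains had higher Des (0.95, limma adjusted p = 0.000399) and Synm and lower Vim, where 15.4% of all genes passed and 6.31% were called lower. Of 18 tested genes of the signals that drive astrocyte differentiation, 1 fell and 1 rose in ERbetaKO-labelled brains against wild type: Stat3, the transcription factor (789 ± 123 in ERbetaKO-labelled and 1029 ± 91.2 in wild type brains; -0.37, limma adjusted p = 0.0466), and Lifr, the LIF receptor (1444 ± 385 and 985 ± 247; 0.52, adjusted p = 0.0478). That is 2 of 18, where 7.51% of all genes passed. The Stat3 call was lost under 23 of 36 alternatives, 13 of which left out 1 array, and the Lifr call under 25 of 36, 14 of which left out 1 array. In ERalphaKO-labelled brains 2 rose, Lifr (0.56, adjusted p = 0.0396) and Zbtb20, a transcription factor of astrocyte development (2063 ± 235 in ERalphaKO-labelled and 1488 ± 118 in wild type brains; 0.45, adjusted p = 0.00575), where 6.71% of all genes passed. The Lifr call was lost there under 17 of 36 alternatives, 10 of which left out 1 array. ERbetaKO-labelled brains were lower than ERalphaKO-labelled brains in Zbtb20 (-0.49), Smad1 (-0.31), Il6st, the shared receptor subunit gp130 (-0.39), and Ep300 (-0.50), 4 of the 18 genes, where 15.4% of all genes passed and 6.31% were called lower.

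**Figure D5:**
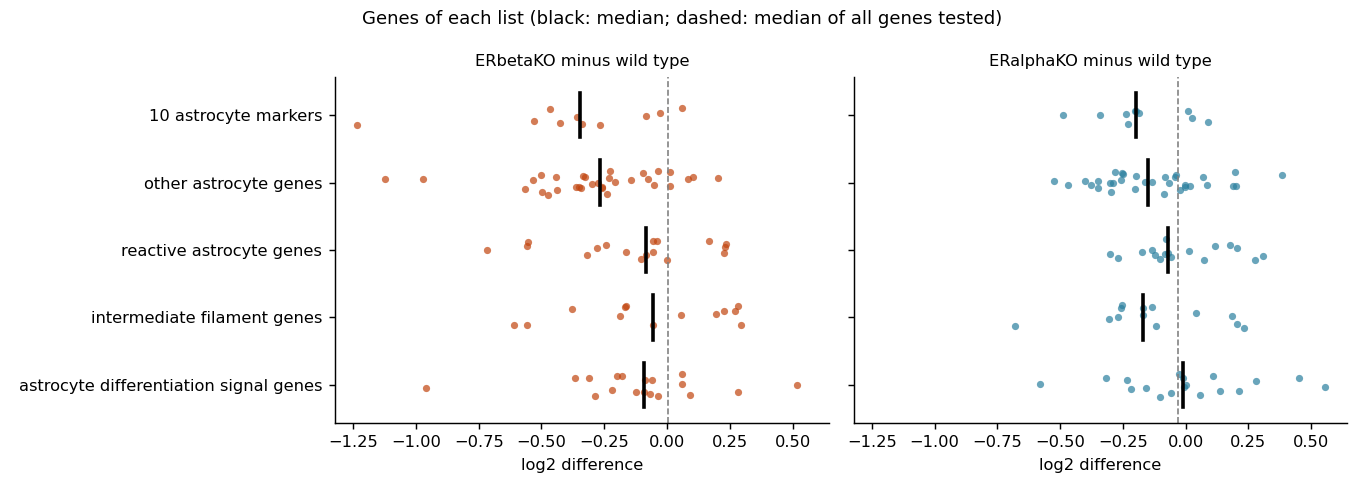
Log2 difference (horizontal axis) of each tested gene of 5 lists for ERbetaKO and for ERalphaKO against wild type; 1 point per gene, a black bar for the list's median and a dashed line for the median of all genes tested. The medians of the 10 astrocyte markers and of the other astrocyte genes lie at -0.35 and -0.27 for ERbetaKO, those of the reactive, filament and differentiation lists nearer to 0.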

How the data were processed

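Whole brain RNA from 18 samples was measured on Affymetrix mouse expression arrays. The authors deposited linear intensities per probe set, made with MAS5 per the submitters' processing notes, whose version is not given in the sources used here. The 2% trimmed mean of each array was 500, and there are no detection calls; the number of arrays limits the precision. Of 45101 probe sets, 64 were controls; of the rest, 34945 had 1 symbol in the platform annotation, 932 several and 9160 none. Symbols were updated through the entrez identifier for 34741.

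Signals were transformed as log2(signal + 63.6), the 25th percentile of all signals. The lead probe set of each gene was kept, and 13070 of 18193 genes at or above the 40th percentile (log2 level 7.58) were tested with limma 3.58.1 in R 4.3.3, with 6 group means and an intensity trend. Other probe sets of the 10 genes were tested in a fit of all probe sets. The pipeline was tested on simulated data. Figures were drawn with matplotlib 3.10.9.

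The genes and lists were chosen with earlier results of these data known. All 10 genes are named, and from each other list up to 6 genes past the threshold per comparison with the smallest adjusted p, plus the 5 genes most like Gfap by each of 2 measures. Replicate numbers are in the labels, but same-numbered samples did not deviate together (mean correlation -0.01, -0.03 and 0.04 for the 3 numbers, and -0.00 for different numbers), so the samples were not treated as paired. Array correlations were 0.956 to 0.985 within and 0.953 to 0.982 between groups, and no pair of arrays was identical. Alternatives covered the pseudocount, scaling, filter, probe set choice, array weights, variance trend, replicate block, covariates, arrays with strong Pcp2, single sexes and each array left out.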

Additional observations from a re-analysis of the deposited data

Results flagged for a closer look

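S100b in ERbetaKO-labelled female replicate 1 stood apart from the other 5 ERbetaKO-labelled arrays, at 4424 against 2460 to 3136. 30 groups of 6 arrays were tested, of which chance alone would mark about 1 in 20, and this was the 1 marked.

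On its lead probe set, Slc1a3 moved in opposite directions in the sexes of ERalphaKO-labelled brains. All 3 females lay below the wild type female mean and all 3 males above the wild type male mean. The wild type males read 3069, 5788 and 4138. The difference from wild type was -0.20 in females and 0.21 in males, and the interaction, -0.41 ± 0.29, did not pass (limma adjusted p = 0.979). On the other Slc1a3 probe sets the interaction was -0.28 (1440491_at), -0.25 (1426341_at), -0.18 (1452031_at), -0.0054 (1426340_at) and 0.26 (1439072_at). None of these passed (limma adjusted p of 0.899 or more in the fit of all probe sets).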

How the results depend on the processing

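The Gfap difference of ERbetaKO from wild type was lost in 1 of 36 alternatives, males alone (-1.12, adjusted p = 0.0571), and ran between -1.37 and -1.01, with adjusted p between 4.97e-05 and 0.0571; that from ERalphaKO was kept in 36 of 36. Against wild type, 2 of the 10 genes passed for ERbetaKO. That count was 7 with median scaling, 6 with array weights, 4 with the cerebellar covariate, 1 with the Actb ratio or females only, and 0 with males only. For ERalphaKO, 1 passed: 0 with quantile normalization, the Actb ratio, strong Pcp2 arrays or either sex alone, 2 with the 60th percentile filter, means over probe sets, array weights or the cerebellar covariate, and 3 with the oligodendrocyte covariate. Between the knockouts, 1 passed, and 3 with median scaling, array weights, the cerebellar covariate or strong Pcp2 arrays. Of the other astrocyte genes, 6 passed for ERbetaKO: 17 with median scaling, 15 with array weights, 3 with the oligodendrocyte covariate, 2 with the Actb ratio or strong Pcp2 arrays, and 0 in either sex alone. For ERalphaKO, 4 passed: 7 with the cerebellar covariate, 2 with quantile normalization or median scaling, and 0 with strong Pcp2 arrays or either sex alone. Of the 18 other probe sets, 2 passed for ERbetaKO: 1 with either of the Actb and oligodendrocyte covariates, strong Pcp2 arrays, only the groups compared or males, and 0 with females. Leaving out 1 array gave 2 to 5, 0 to 2 and 1 to 3 for the 10 genes, 3 to 12 and 1 to 6 for the other astrocyte genes, and 1 to 3 for the other probe sets. Fewer samples enter the single-sex and strong Pcp2 fits; for the other settings the cause was not tested.

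With a replicate block, the counts for the 10 genes were 2, 1 and 1 (ERbetaKO and ERalphaKO against wild type, and between the knockouts), Gfap kept its call (adjusted p = 0.000831), and all-gene calls were 852 against 981 for ERbetaKO and 732 against 877 for ERalphaKO; 5 of 18 arrays matched best an array of their own number. Over all genes, 981 passed for ERbetaKO against wild type, 38.6% of them higher; median scaling gave 1877, 7.25% higher. Other settings gave 1550 (array weights), 581 (oligodendrocyte covariate), 242 (strong Pcp2), 151 (Actb ratio), 60 (males) and 6 (females). Between the knockouts, 59.1% of calls were higher, and 22.9% with median scaling.

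Signs turned for values that had not passed. For ERbetaKO against wild type, Slc1a2 was -0.075 with median scaling, -0.00367 with means over probe sets, -0.010 with the oligodendrocyte covariate and -0.00118 in females; Slc1a3 was 0.018 with quantile normalization and, with the cerebellar covariate, the Actb ratio and strong Pcp2 arrays, 0.042, 0.10 and 0.25; Aldh1l1 was 0.019 with means over probe sets; Glul was 0.13 with the Actb ratio and 0.13 with strong Pcp2 arrays. For ERalphaKO against wild type, Slc1a2 was 0.11 with quantile normalization, Slc1a3 -0.00897 with median scaling, and in females Aqp4 was -0.045, Slc1a3 -0.20 and Fgfr3 0.079. Between the knockouts, Slc1a3 was 0.038, 0.057, 0.22 and 0.14 (cerebellar, Actb ratio, strong Pcp2, females), Aldh1l1 0.15, 0.033 and 0.052 (means over probe sets, oligodendrocyte, females), Fgfr3 0.10, 0.062 and 0.16 (means over probe sets, oligodendrocyte, males), Aldoc -0.082 and -0.023 (quantile, males), Glul -0.12 (means over probe sets) and Slc7a10 0.064 (oligodendrocyte). Synm, which had passed, was -0.083 with means over probe sets. With 1 array left out, ranges that crossed 0 were -0.00247 to 0.12 for Slc1a2 and -0.15 to 0.085 for Slc1a3 (ERbetaKO), -0.084 to 0.14 for Aqp4, -0.10 to 0.12 for Slc1a3 and -0.044 to 0.22 for S100b (ERalphaKO), and -0.16 to 0.057 for Slc1a3 between the knockouts. Signal near background cannot be recognised without detection calls.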
